A study of Mus musculus with 20 samples.

Results

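The hearts of mice with a knockdown of Taz (Taz-KD) were compared with wild-type (WT) hearts over every expressed gene, leaving aside by list the serine and one-carbon genes, the targets of the transcription factor ATF4 and the genes of amino acid metabolism. The comparison used 10 of the 20 libraries of the series, the others being skeletal muscle, and 19486 of the 47069 genes in the heart count table passed the filter on low counts. WT mice were C57BL/6N and the transgenic mice were ROSA26H1/tetO-shRNA:TAZ, in which a hairpin RNA against Taz is made in all tissues and not in cardiomyocytes alone. Both genotypes ate chow with doxycycline (625 mg/kg) up to the age of 20 weeks. The drug was common to both groups and the transgene was not. There were 5 mice per genotype with 1 library each. The WT libraries were R3, R1791, R1792, R1795 and R1800 and the Taz-KD libraries R2, R1793, R1796, R1797 and R1798, and values per library are given in this order. The p-values measure the spread between these mice.

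Taz encodes tafazzin, the mitochondrial transacylase that remodels cardiolipin, the signature phospholipid of the inner mitochondrial membrane. Cardiolipin holds the respiratory chain complexes, the ADP/ATP carrier and the cristae in place, and loss of tafazzin causes Barth syndrome, with cardiomyopathy, skeletal myopathy and neutropenia. The adult heart draws most of its ATP from mitochondria that burn fatty acids, and it uses muscle-type members of several gene families whose general-type members are used by other tissues and by the fetal heart. Mitochondrial damage is signalled to the nucleus through the phosphorylation of the initiation factor eIF2 and the translation of ATF4, which slows bulk protein synthesis while genes of amino acid supply are raised.

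Taz itself, measured as CPM (counts per library scaled to a common size by the trimmed mean of M-values), stood at 36.9, 36.0, 39.2, 39.1 and 37.8 in the WT hearts and at 11.7, 11.1, 12.9, 11.6 and 11.0 in the Taz-KD hearts. Every library matched its label at this gene. The log2 fold change was -1.70 ± 0.06 (SE, edgeR adjusted p = 4.08e-09). An exact two-sided permutation over the 252 splits of 5 against 5 gave the smallest p it can give (0.00794). Depth was 26963288 to 30090918 counts in WT and 30248445 to 35301909 in Taz-KD libraries. Every Taz-KD library was thus deeper than any WT library. The defining cardiomyocyte markers were present in all libraries. The light chain Myl7, which marks atrial myocardium, was at 8.79, 1.77, 11.7, 0.420 and 0 CPM in WT and at 0.218, 0.366, 50.4, 28.2 and 59.7 CPM in Taz-KD hearts. Myl7 was thus highest in the Taz-KD libraries R1796, R1797 and R1798, called below the 3 libraries with atrial markers. The mean log2 CPM of Myl7, Myl4, Sln and Mybphl, picked after the data were seen, was 4.61, 3.74 and 4.86 in these. It was at most 2.76 in the others. The summed level of the 9 tested atrial markers did not set them apart (219, 575, 579, 351 and 715 CPM in Taz-KD, 253 to 362 CPM in WT hearts). Of the 9, 1 passed, as lower. Whether atrial tissue was included was not tested. Counts were recomputed with that mean, the atrial marker level, as a term in the fit. They were also recomputed without those 3 libraries, which leaves 2 Taz-KD libraries. The X-inactivation RNA Xist was above 100 CPM in 3 of 5 libraries of either genotype. Gm26917, a gene model with ribosomal RNA sequence, was at 16591 to 21384 CPM in WT and at 25457 to 29423 CPM in Taz-KD libraries (log2 fold change 0.54, edgeR adjusted p = 0.00103, 0.0547 without those 3 libraries). All rRNA-like and short RNA genes together took 4.35% to 5.16% of WT counts and 5.29% to 6.15% of Taz-KD counts. The part of sex and of these RNAs was examined only by refits with the Xist level as a term and without those RNAs.

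Of the 19486 genes tested, 2804 were higher (14.4%) and 1999 lower (10.3%) in Taz-KD hearts at an adjusted p under 0.05 in edgeR's quasi-likelihood test (24.6% in all), and the median log2 fold change over all of them was -0.02. Outside the 3 lists left aside, 2729 genes rose and 1986 fell. In 2201 genes (11.3%) every Taz-KD library was above every WT library and in 1374 (7.05%) every one was below. These percentages are the background for the counts that follow. With the atrial marker level as a term, 2361 genes rose and 1468 fell, and without the 3 libraries 1522 rose and 647 fell. Of 175 called genes named here, 43 missed the threshold without those libraries and 10 with the marker term. Such calls are marked where the gene is described. In bulk tissue, fewer cells of a type and less RNA per cell cannot be told apart. The 54 programs described here held 1322 tested genes, of which 519 passed.

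**Figure D1:**
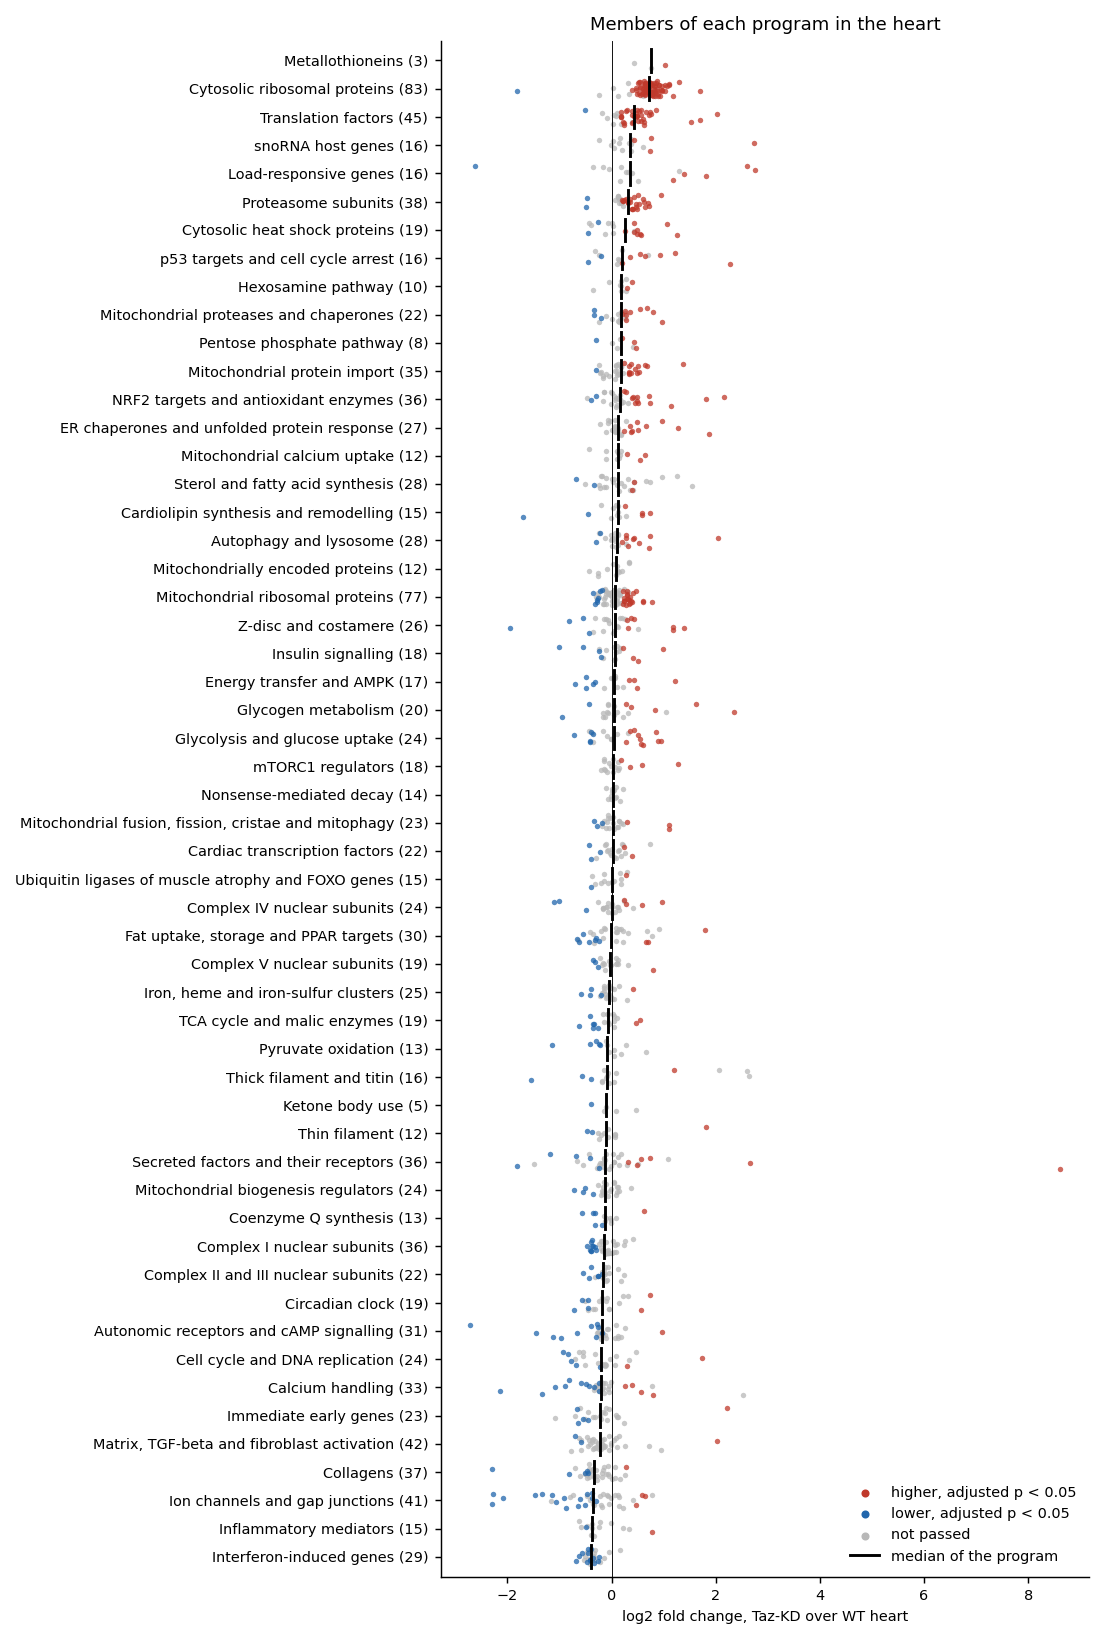
Log2 fold change (Taz-KD over WT, horizontal axis) of each tested member of the 54 programs, ordered by the median (black bar), with the number of tested members in brackets; red and blue points passed the test as higher or lower. The cytosolic ribosomal proteins lie almost wholly to the right with a median of 0.71, while interferon-induced genes and ion channels lie mostly to the left with medians of -0.39 and -0.36.

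The genes for the machinery of cytosolic protein synthesis rose together. Of 83 cytosolic ribosomal proteins, 76 rose and 1 fell, with a median log2 fold change of 0.71, and 74 of them were higher in every Taz-KD library than in any WT library. Of 45 translation factors 36 rose and 1 fell, with a median of 0.44. Without the 3 libraries with atrial markers, 74 ribosomal proteins and 26 factors rose. The count of ribosomal proteins kept between 74 and 77 rises under each of the 25 alternative fits.

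Rps26, a protein of the small subunit, was at 95.7, 96.8, 93.9, 95.5 and 95.5 CPM in WT hearts and at 203, 207, 179, 197 and 209 CPM in Taz-KD hearts. Eif3c, a core subunit of the initiation complex eIF3 that joins the ribosome to mRNA, was at 111, 126, 118, 116 and 116 CPM against 411, 339, 408, 344 and 391 CPM. Both were narrow within a genotype and far apart between them. The log2 fold changes were 1.06 ± 0.05 (edgeR adjusted p = 5.89e-08) and 1.69 ± 0.07 (1.07e-08). Eef1a1, the elongation factor that brings aminoacyl-tRNA to the ribosome, was at 608, 417, 498, 428 and 435 CPM in WT and at 1803, 2016, 1993, 1984 and 1873 CPM in Taz-KD hearts (2.02 ± 0.11, adjusted p = 6.25e-08). Eif2s2, the beta subunit of eIF2, rose from 40.4 ± 2.67 to 116 ± 14.1 CPM (SD, n = 5 each). Eef2, the translocase of elongation, rose from 1096 ± 29.1 to 1789 ± 38.5 CPM. The single factor that fell was Eif4e, the cap-binding protein (log2 fold change -0.51, adjusted p = 0.000638). Ribosomal protein genes and Eef1a1 have many processed pseudogenes, and reads shared with such copies make their counts uncertain. Among 1034 processed pseudogenes tested, 112 were higher and 27 lower, both smaller shares than over all genes tested (14.4% and 10.3%).

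Around the starts of their transcripts, Eif3c and Rps26 carry the letters CCGGAAG, the core bound by ETS factors such as GABP that are known at promoters of ribosomal and mitochondrial genes. The promoters are shown because these genes had the smallest adjusted p of their lists, with the match to the motif on either strand in capitals. In the RefSeq windows of GRCm38.p6, taken from 250 bases before the RefSeq start, the same letters occur in 6.91% of 32851 windows, and a match is a description of the letters and not of binding. Distances are to the RefSeq start, and the Rps26 match and the nearer Eif3c match lie inside the gene models that were counted, which begin farther upstream. The Eif3c match nearest its RefSeq start lies 34 bases before it and the other 68, on GRCm38 chr7:126566367-126566479 (minus strand). That of Rps26 lies 214 bases before it on chr10:128626669-128626756 (minus strand).
Eif3c promoter: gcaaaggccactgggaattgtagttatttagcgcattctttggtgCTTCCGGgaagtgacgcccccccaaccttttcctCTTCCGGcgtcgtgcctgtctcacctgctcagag
Rps26 promoter: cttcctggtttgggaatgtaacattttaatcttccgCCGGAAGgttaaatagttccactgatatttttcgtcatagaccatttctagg

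Lists for steps upstream and downstream of the ribosome were drawn up after these values had been seen. Of 45 genes of ribosome assembly and RNA polymerase I, 28 rose and none fell (median 0.37), led by Nhp2, a core protein of the H/ACA particles that modify ribosomal RNA (6.52 ± 0.543 to 16.8 ± 2.05 CPM, SD). Of 16 genes of the nascent chain complex, prefoldin and the chaperonin CCT, 14 rose and none fell (median 0.45). Btf3, the beta subunit of the nascent chain complex, was at 51.7, 58.6, 54.5, 51.3 and 53.9 CPM in WT and at 142, 124, 140.4, 120.3 and 132 CPM in Taz-KD hearts (1.29 ± 0.06, adjusted p = 3.75e-08). The subunits and factors of RNA polymerase III did not move as a group, with 5 higher and 1 lower of 21 (median 0.08). Of 16 snoRNA host genes 4 were higher (2 without the 3 libraries), among them Gas5 (11.3 to 18.8 CPM, adjusted p = 0.000518), and the 14 genes of nonsense-mediated decay held no call in edgeR's test (2 at an unadjusted p under 0.05, 0 by DESeq2).

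Of 38 proteasome subunits 25 rose and 2 fell, with a median of 0.31. Psmb1, a subunit of the catalytic core, rose from 58.6 ± 3.98 to 96.4 ± 10.3 CPM (SD) and Psmc2, an ATPase of the regulatory cap, from 56 ± 2.13 to 86.7 ± 7.21 CPM. Both that fell, Psmb8 (log2 fold change -0.50, edgeR adjusted p = 0.00683) and Psmb9 (-0.47, 0.0185), are interferon-induced subunits of the immunoproteasome, and neither passed without the 3 libraries with atrial markers (0.0623 and 0.110). Gene models on the other strand overlap both.

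Of 19 cytosolic heat shock proteins and co-chaperones 9 rose and 2 fell (median 0.26). Hsp90aa1, the inducible form of HSP90, was at 97.4, 76.3, 101, 105 and 94.2 CPM in WT hearts and at 203, 264, 311, 177 and 174 CPM in Taz-KD hearts (1.25 ± 0.16, edgeR adjusted p = 0.000283). The small heat shock protein Hspb1, which protects actin and other proteins from aggregation, rose from 109.7 ± 18.6 to 231 ± 45.9 CPM (SD). The groups did not overlap for either. Fkbp4, a co-chaperone of steroid receptors, and Dnajb1, a classical target of the heat shock factor HSF1, fell (-0.45 and -0.27), the call of Dnajb1 being lost in 10 of 25 alternative fits (adjusted p = 0.244 without the 3 libraries).

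In the unfolded protein response of the endoplasmic reticulum, 10 of 27 genes rose and none fell (median 0.13). Ern1, which encodes the sensor kinase IRE1, was at 39.9, 37.9, 37.9, 37.4 and 28.6 CPM in WT hearts and at 142, 98.3, 133, 151 and 141 CPM in Taz-KD hearts (1.87 ± 0.12, edgeR adjusted p = 6.60e-07). The sensor Atf6 rose from 164 ± 12.3 to 394 ± 59.1 CPM (SD) and Derl1, a channel protein for the degradation of misfolded proteins, from 50.7 ± 3.45 to 98.2 ± 13.0 CPM. Hspa5, which encodes the chaperone BiP and is the usual marker of this response, was at 337 ± 14.9 CPM in WT hearts and 354 ± 44.6 CPM in Taz-KD hearts (0.07 ± 0.08, adjusted p = 0.589).

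Of 28 genes of autophagy and the lysosome 10 rose and 2 fell. The lysosomal protease Ctsl stood out, at 91.0, 88.9, 93.9, 81.8 and 83.2 CPM in WT hearts and 398, 289, 498, 333 and 284 CPM in Taz-KD hearts (2.04 ± 0.14, edgeR adjusted p = 2.05e-06). The lysosomal protease Ctsd (0.71) and the autophagy receptor Sqstm1 (0.73) rose less. The related protease Ctsb fell (-0.30, adjusted p = 0.00964, 0.162 without the 3 libraries with atrial markers). Gene models that overlap Ctsl on both strands make its count uncertain to the extent that reads were shared. Deptor, an inhibitor of the growth kinase mTOR, rose from 34.9 ± 3.97 to 84.7 ± 5.20 CPM (1.28), 1 of 4 rises and no fall among 18 regulators of mTORC1. The ubiquitin ligases that mark muscle atrophy did not pass, with Trim63 at -0.21 and Fbxo32 at 0.17, and 1 gene of that list of 15 rose and 1 fell.

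Among mitochondrial lists, those of protein import and of chaperones and proteases held more rises than falls, and those of complexes I to III and of coenzyme Q more falls than rises, while complex IV was mixed. Of 35 genes of protein import 14 rose and 1 fell (median 0.18). Hspa9, the mitochondrial HSP70 that pulls precursors into the matrix, was at 456, 569, 500.1, 543 and 537 CPM in WT and at 1396, 1220.5, 1432, 1254 and 1426 CPM in Taz-KD hearts (1.37 ± 0.08, edgeR adjusted p = 1.91e-07). Among 22 matrix chaperones and proteases 9 rose and 3 fell. Rises were those of the folding pair Hspd1 (291 to 502 CPM) and Hspe1 (35.3 to 68.6 CPM), whose genes share a promoter region and overlap at their starts, and of the inner membrane protease Afg3l2 (136 to 199 CPM). Oma1, the stress-activated protease of the same membrane, fell from 25.8 ± 1.81 to 20.3 ± 1.41 CPM (-0.34, adjusted p = 0.00369, 0.0693 without the 3 libraries with atrial markers). Without those libraries the import rises numbered 6 and those of the chaperones and proteases 4. Of 77 mitochondrial ribosomal proteins 22 rose and 7 fell, with a median of 0.07, against 0.71 for their cytosolic counterparts, and 7 rose without the 3 libraries. Leaving out R3 or R1796 alone gave 14 rises.

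Chchd10, an intermembrane space protein of the cristae junctions, and Chchd6, a subunit of the MICOS complex that shapes cristae, rose by 1.11 each. Chchd10 was at 329, 350.4, 345, 364 and 396 CPM in WT hearts and at 772, 772, 816, 761 and 734 CPM in Taz-KD hearts (edgeR adjusted p = 1.91e-07), with no overlap. Its gene overlaps Mmp11 on the other strand, which makes its count less certain. Chchd6 went from 4.38 ± 0.478 to 9.49 ± 1.58 CPM (SD). The other 21 tested genes of fusion, fission, cristae and mitophagy held 1 rise and 3 falls, the falls including Pink1, the kinase that marks damaged mitochondria (-0.34, adjusted p = 0.00966, 0.0757 without the 3 libraries with atrial markers). The promoter of Chchd10 holds the composite element of ATF4 and C/EBP factors, written TGATGNAA, with 2 matches 85 and 72 bases before the start on chr10:75933000-75933110 (plus strand). That of Ctsl holds 1 match on the opposite strand 153 bases before the start on chr13:64370621-64370718 (minus strand). The Ctsl window lies inside the counted gene model (chr13:64359337-64370890), which begins upstream of the RefSeq start used, and the Chchd10 matches lie outside its model. They are shown because both genes were outside the list of ATF4 targets, and were chosen after their values had been seen. The element was searched on both strands in the RefSeq windows of GRCm38.p6 and occurs in 3.45% of 32851 windows.
Chchd10 promoter: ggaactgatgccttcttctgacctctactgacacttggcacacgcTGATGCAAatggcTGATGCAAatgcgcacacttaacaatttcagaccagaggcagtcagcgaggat
Ctsl promoter: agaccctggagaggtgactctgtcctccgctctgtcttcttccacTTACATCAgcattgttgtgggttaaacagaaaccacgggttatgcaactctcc

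Beside Taz, 14 genes of cardiolipin synthesis and remodelling were tested, and 4 rose and 1 fell. The rises were Cds2, which makes CDP-diacylglycerol (233 ± 9.36 to 351 ± 22.0 CPM, SD, edgeR adjusted p = 2.18e-05), the lipid carriers Prelid3b (31.0 to 51.6 CPM) and Prelid1 (18.7 to 28.1 CPM), which bring lipid precursors across the intermembrane space, and the phospholipase Pnpla8 (125 to 150.3 CPM). The fall was that of Lclat1, an acyltransferase that can also remodel cardiolipin (113 ± 15.3 to 82.0 ± 8.12 CPM, adjusted p = 0.00348, 0.117 without the 3 libraries with atrial markers). Prelid1 and Pnpla8 did not pass without them either (0.0564 and 0.112).

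Of the nuclear subunits of complex I 10 of 36 fell and none rose (median -0.14), and of complexes II and III 6 of 22 fell and none rose (median -0.16). Uqcrfs1, the Rieske iron-sulfur protein of complex III, was at 432, 459, 450.1, 496 and 482 CPM in WT and at 338, 315, 319, 304 and 318 CPM in Taz-KD hearts (-0.54 ± 0.06, edgeR adjusted p = 4.02e-05). The complex I core subunit Ndufs7 fell from 166 to 125 CPM (-0.41) and did not overlap between genotypes. The 12 tested mitochondrially encoded proteins did not follow. None was called by edgeR (1 at an unadjusted p under 0.05, 1 by DESeq2) and their median was 0.09. Without the 3 libraries with atrial markers, 2 complex I subunits and 1 of complexes II and III passed as lower. Atpif1, the inhibitor of ATP hydrolysis by the ATP synthase, rose within the 19 genes of complex V (25.6, 31.7, 28.1, 26.1 and 40.4 CPM against 60.2, 42.4, 58.9, 39.7 and 62.5 CPM, 0.80 ± 0.16, adjusted p = 0.00448), with 1 WT library above a Taz-KD library.

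Coenzyme Q, the lipid that carries electrons from complexes I and II to complex III, is made and handled by 13 genes here, of which 5 fell and 1 rose. Coq10a, a Q-binding protein, fell from 123 ± 11.2 to 83.3 ± 8.40 CPM (SD, edgeR adjusted p = 0.000395) and Coq9, which presents Q intermediates to their enzymes, from 235 to 188 CPM. The kinase-like protein Coq8b rose from 7.55 ± 0.517 to 11.6 ± 2.47 CPM. Its muscle counterpart Coq8a fell from 407 to 327 CPM. Among 24 regulators of mitochondrial biogenesis 4 fell and none rose: Perm1, a muscle partner of PGC-1 (-0.73, adjusted p = 0.00126), Rxra, the partner of PPAR receptors (-0.36), the oestrogen-related receptor Esrrb (-0.54), and Ppara, the receptor that drives fatty acid genes (-0.52, adjusted p = 0.0156, 0.282 without the 3 libraries with atrial markers). Coq9, Coq8a and Esrrb likewise did not pass without them (0.0920, 0.0602 and 0.164). Ppargc1a, the coactivator PGC-1 alpha itself, was at 154, 179, 146, 150.0 and 231 CPM in WT and at 215, 112, 146, 133 and 165 CPM in Taz-KD hearts (adjusted p = 0.576). Tfam, the packaging factor of mitochondrial DNA, was at 29.3 ± 2.15 and 26.1 ± 1.67 CPM (-0.17, adjusted p = 0.0977). On the uptake of calcium, 3 of 12 genes rose and none fell: the outer membrane channels Vdac3 (134 to 209 CPM) and Vdac2 (247 to 302 CPM, adjusted p = 0.0501 without those libraries) and the uniporter gatekeeper Micu2 (60.4 to 88.2 CPM).

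**Figure D2:**
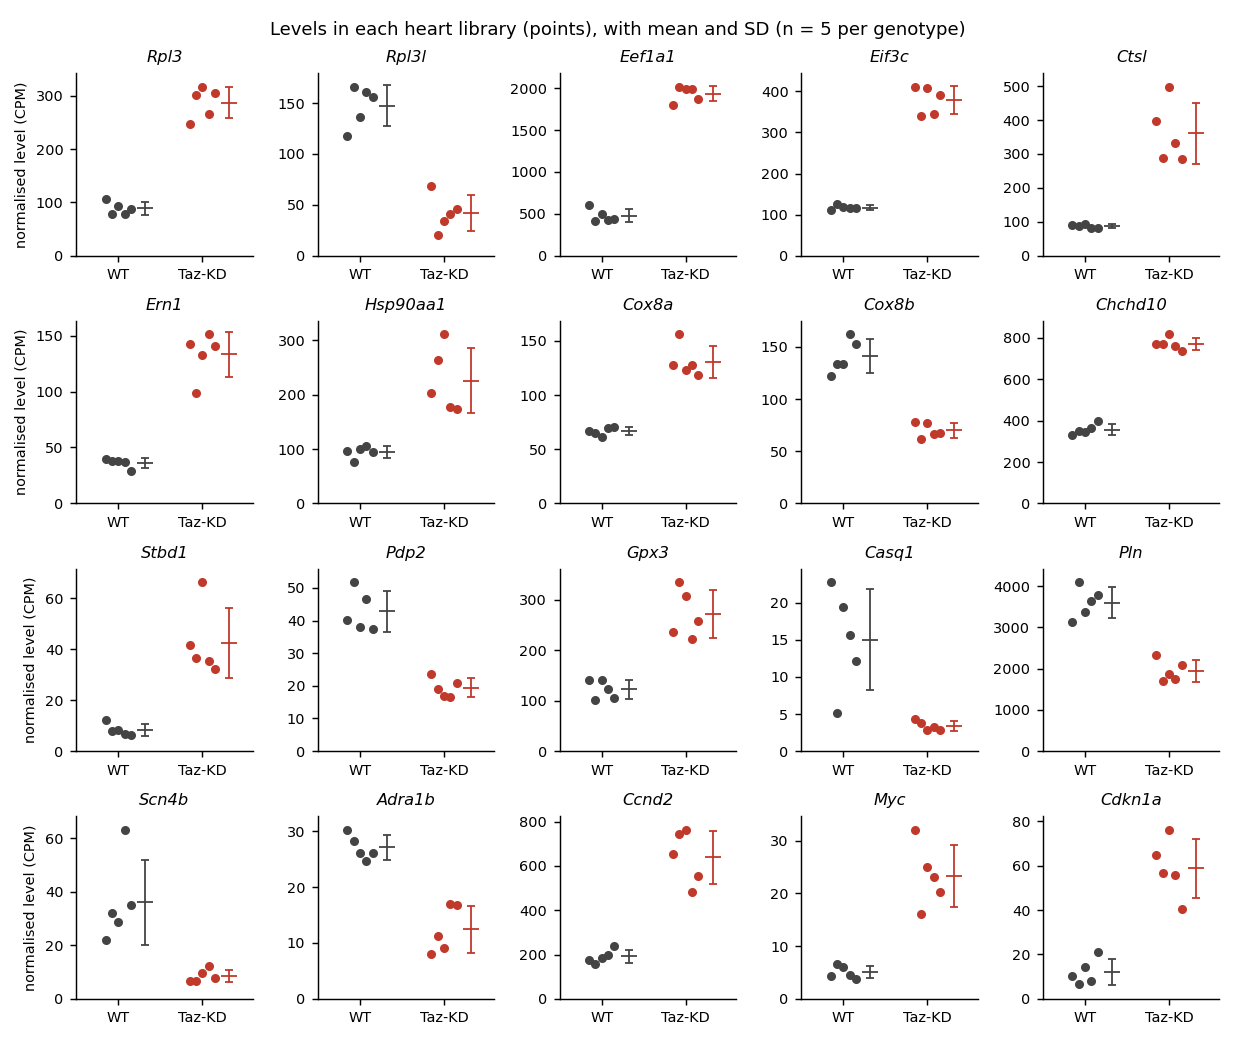
Normalised level (CPM, vertical axes start at 0) of 20 genes in each heart library, WT in black and Taz-KD in red, with mean and SD beside the points (n = 5 per genotype). In all 20 panels the WT and Taz-KD points do not overlap, and Eif3c, Eef1a1 and Chchd10 show the least spread within a genotype relative to the distance between them.

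Of 17 pairs in which a muscle-type gene has a general-type counterpart, picked after their values had been seen, the muscle-type gene fell in 10 and rose in none, while the general-type gene rose in 12 and fell in 1. Both moved in those directions in 8 pairs. Of the genes in these pairs, Rpl3l, Cox7a2, Slc25a4, Pfkm and Eno3 did not pass without the 3 libraries with atrial markers. The pairs were not counted again without those libraries. The rise of Cox6a1, in another pair (0.58, edgeR adjusted p = 0.0375), was lost in 10 of 25 alternative fits. Scaled by exon length, the share of the muscle-type gene in the sum of a pair was lower in every Taz-KD heart than in any WT heart for 12 pairs, higher for 1 and overlapping for 4.

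Rpl3l replaces the ribosomal protein Rpl3 in adult heart and muscle, and was the single ribosomal protein that fell. It was at 118, 166, 136, 161 and 156 CPM in WT hearts and at 68.2, 20.9, 34.4, 41.1 and 45.6 CPM in Taz-KD hearts (-1.81 ± 0.27, edgeR adjusted p = 0.000989, 0.0588 without the 3 libraries with atrial markers). Rpl3 was at 106, 78.0, 94.1, 77.8 and 88.5 CPM against 247, 302, 317, 265 and 306 CPM (1.69 ± 0.10, adjusted p = 2.19e-07). The share of Rpl3l in the pair went from 75.9% ± 5.14 (SD, n = 5) in WT to 21.9% ± 8.53 in Taz-KD hearts, so that the pair changed its leading member. Eef1a2, the elongation factor of muscle and nerve, did not pass (889 ± 90.7 and 945 ± 72.0 CPM, adjusted p = 0.496), and its share went from 69.0% ± 5.33 to 36.9% ± 2.34 through the rise of Eef1a1.

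In complex IV, where 4 of 24 subunits rose and 3 fell (median 0.00), most of these calls were of subunits with heart and liver forms. Cox8b, the heart form of subunit 8, was at 122, 134, 134, 162 and 153 CPM in WT and at 77.9, 61.3, 77.4, 66.3 and 67.9 CPM in Taz-KD hearts (-1.01 ± 0.09, edgeR adjusted p = 7.96e-06). Its ubiquitous counterpart Cox8a was at 67.1, 65.0, 61.2, 69.5 and 70.3 CPM against 128, 156, 123, 128 and 119 CPM (0.97 ± 0.08, adjusted p = 2.57e-06). Mirror changes of the same size brought the share of Cox8b from 78.4% ± 1.61 to 48.0% ± 4.69. The share of Cox7a1, the heart form of subunit 7a (318 ± 53.4 to 147 ± 26.5 CPM), went from 82.1% ± 1.76 to 64.5% ± 2.76 against Cox7a2 (0.23, adjusted p = 0.0101, 0.101 without the 3 libraries with atrial markers). Cox6a2 and Cox6a1 kept overlapping shares of 95.2% ± 0.859 and 94.6% ± 1.68 for the muscle form, and Cox6c, another subunit, fell (-0.50, adjusted p = 0.00358, 0.0618 without those libraries).

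Slc25a5, the general ADP/ATP carrier, rose from 147 ± 20.8 to 342 ± 19.4 CPM (SD, 1.22 ± 0.09, edgeR adjusted p = 1.63e-06). Slc25a4, the carrier of heart and muscle, fell by 0.31 on the log2 scale, a call lost in 11 of 25 alternative fits (edgeR adjusted p = 0.208 without the 3 libraries). Its share nevertheless lay below that of WT in every Taz-KD library, 91.4% ± 0.431 against 78.5% ± 2.08. In glycolysis the shares of Hk2, Pfkm, Eno3, Pgam2 and the glucose carrier Slc2a4 were all lower in every Taz-KD library. That of Hk2 went from 78.4% ± 1.78 to 60.6% ± 3.42 and that of Slc2a4 from 95.6% ± 0.248 to 91.6% ± 1.88. Phkg1, the muscle catalytic subunit of phosphorylase kinase, fell (34.1, 38.3, 27.3, 21.1 and 33.1 CPM against 17.3, 12, 13.3, 17.9 and 18.9 CPM) without a change of Phkg2 that passed. The creatine kinases went the other way: Ckm did not pass and the brain form Ckb, which is also a fetal form, fell (-0.70, adjusted p = 0.0102, 0.0626 without the 3 libraries with atrial markers), so that the share of Ckm was above that of WT in every Taz-KD library.

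**Figure D3:**
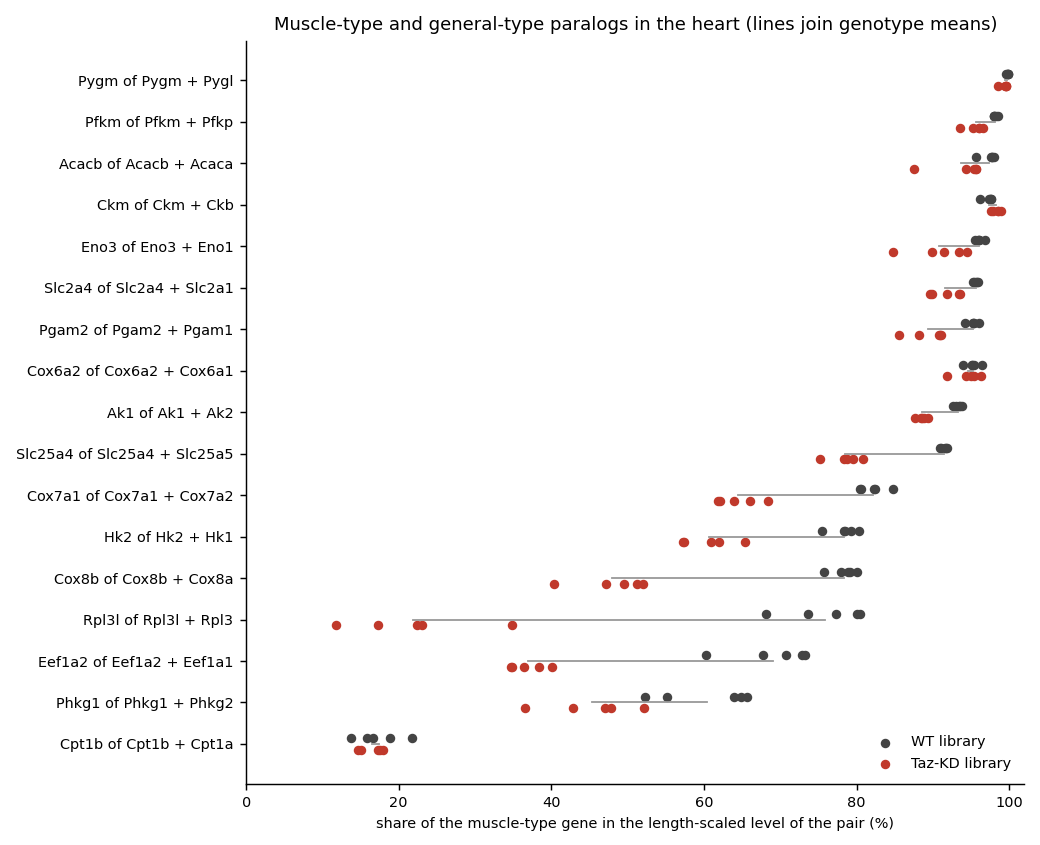
Share (%) of the muscle-type gene in the length-scaled level of each of 17 paralog pairs, with 1 point per heart library (WT black, Taz-KD red) and lines joining the genotype means. Rpl3l, Eef1a2, Cox8b and Hk2 show the widest gaps, and in Rpl3l and Eef1a2 the Taz-KD points fall below 50%. The low share of Cpt1b is uncertain, because the gene model Gm44502 overlaps both it and its neighbour Chkb on the same strand.

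Of 24 genes of glycolysis and glucose uptake, 10 rose and 5 fell (median 0.04), and 3 of the falls were the muscle-type members Slc2a4, Pfkm and Eno3. The other falls were Ldha, which makes lactate dehydrogenase A (-0.40, edgeR adjusted p = 0.000813), and Pfkfb2, which sets the level of an activator of phosphofructokinase and lost its call in 13 of 25 alternative fits (0.107 without the 3 libraries). Pfkm and Eno3 did not pass without the 3 libraries with atrial markers (0.0589 and 0.0773). Hk1, the hexokinase that binds mitochondria in most tissues, was at 156, 149, 140.2, 152 and 182 CPM in WT and at 276, 333, 319.6, 238 and 254 CPM in Taz-KD hearts (0.86 ± 0.10, edgeR adjusted p = 7.10e-05). Pfkp, the platelet form of phosphofructokinase, rose from 53 ± 7.37 to 98.5 ± 18.8 CPM (SD), Gpi1, the next enzyme of the pathway upstream, from 355 to 517 CPM and the basal glucose carrier Slc2a1 from 14.5 ± 0.575 to 21.4 ± 4.54 CPM. Hk2 was at 399 ± 53.5 and 308 ± 59.8 CPM (-0.37, adjusted p = 0.0665). In the entry of pyruvate into mitochondria none of 13 genes rose and 5 fell. The falls numbered 2 without the 3 libraries and also with the marker term, and 3 without R1795, R1793 or R1797 alone. Pdp2, the phosphatase that switches pyruvate dehydrogenase on, was at 40.3, 51.8, 38.1, 46.5 and 37.3 CPM in WT and at 23.5, 19.1, 16.9, 16.6 and 20.8 CPM in Taz-KD hearts (-1.14 ± 0.12, adjusted p = 2.40e-05). Both subunits of the pyruvate carrier, Mpc1 (-0.29, adjusted p = 0.166 without the 3 libraries) and Mpc2 (-0.42), fell. Pdk4, the kinase that opposes Pdp2, was widely spread at 373 to 1238 CPM in WT hearts and 386 to 1822 CPM in Taz-KD hearts (adjusted p = 0.643).

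Of 20 glycogen genes 5 rose and 2 fell (median 0.04). Stbd1, a glycogen-binding protein of internal membranes, was at 12.2, 7.86, 8.37, 6.72 and 6.35 CPM in WT and at 41.6, 36.5, 66.4, 35.3 and 32.1 CPM in Taz-KD hearts (2.35 ± 0.24, edgeR adjusted p = 7.29e-05). Gyg, which primes the particle, rose from 91.7 ± 7.13 to 282 ± 56.6 CPM and Gbe1, which branches it, from 48.6 ± 4.46 to 87.0 ± 11.7 CPM (SD). The falls were Phkg1 and Epm2a, the glycogen phosphatase laforin (-0.44, adjusted p = 0.0568 without the 3 libraries with atrial markers).

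Genes of fat uptake and storage that respond to PPAR receptors held 7 falls and 3 rises among 30. The falls numbered 3 without the 3 libraries with atrial markers, and 4 without R1792, R1793, R1796 or R1798 alone. Lpl, the lipase that frees fatty acids at the capillary wall, was at 3095, 4171, 3994, 3958 and 3859 CPM in WT and at 3046, 1761, 2507, 2446 and 2313 CPM in Taz-KD hearts (-0.66 ± 0.13, edgeR adjusted p = 0.00304, 0.0810 without the 3 libraries with atrial markers). Acsl1, which activates fatty acids, fell from 866 ± 78.9 to 595 ± 63.5 CPM (SD). Dgat2, for triglyceride synthesis, fell (-0.43), and the rises were those of Acot2, a mitochondrial thioesterase (84.5 ± 14.7 to 293 ± 41.1 CPM, 1.79 ± 0.13, adjusted p = 2.09e-06), and of G0s2 (0.70) and Cidea (0.66), which hold fat in droplets. In the TCA cycle 6 of 19 genes fell (1 without the 3 libraries) and 2 rose, and the rises were the malic enzymes Me1 (104 to 142 CPM), a source of NADPH, and Me2 (7.87 to 11.5 CPM). Me3, a mitochondrial malic enzyme, fell from 61.5 to 40.1 CPM (-0.62, adjusted p = 0.000348). The smaller metabolic lists were mixed, with 3 rises and 1 fall among 8 genes of the pentose phosphate pathway, 4 and 5 among 17 of energy transfer, 2 and 2 among 28 of sterol and fatty acid synthesis, and 1 and 4 among 25 of iron, heme and iron-sulfur clusters. The hexosamine pathway held 2 rises among 10 and ketone body use 1 fall among 5.

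Among 36 antioxidant enzymes and targets of the factor NRF2 13 rose and 2 fell (median 0.17), and 8 rose without the 3 libraries with atrial markers. Gpx3, the secreted glutathione peroxidase, was at 140.4, 102, 140.5, 123 and 105 CPM in WT hearts and at 236, 335, 308, 222 and 258 CPM in Taz-KD hearts (1.15 ± 0.13, edgeR adjusted p = 7.74e-05). Cat, catalase of the peroxisome, rose from 194 ± 21.4 to 322 ± 17.7 CPM (SD) and the peroxiredoxin Prdx6 from 107 to 151 CPM. Sod2, the superoxide dismutase of the mitochondrial matrix, fell from 495 ± 31.7 to 376 ± 22.7 CPM (-0.40, adjusted p = 0.00100) where Sod1, that of the cytosol, rose from 78.6 to 111 CPM (0.49, adjusted p = 0.00106). The sentinel NRF2 targets did not pass, Nqo1 at 24.8 ± 4.50 and 31.0 ± 4.31 CPM (adjusted p = 0.0958) and Hmox1 at 8.66 ± 1.19 and 11.8 ± 2.82 CPM (adjusted p = 0.0528). The metal-binding Mt2 rose from 42.4 ± 11.6 to 86.4 ± 25.0 CPM (1.03, adjusted p = 0.0102, 0.0505 without R2 and R3).

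Of 16 thick filament genes 1 rose and 3 fell, of 12 thin filament genes 1 rose and 2 fell, and of 26 genes of the Z-disc and costamere 7 rose and 4 fell. The Z-disc rises numbered 4 without R1792, R1795 or R2 alone, and 2 rises and 1 fall were left without the 3 libraries with atrial markers. The myosin heavy chains Myh6 (28869.9 ± 3606 and 27032 ± 4562 CPM, SD, edgeR adjusted p = 0.641) and Myh7 (893 ± 92.7 and 866 ± 209 CPM, adjusted p = 0.866), whose ratio marks fetal reversion, did not pass. Their relative Myh7b fell, at 105, 111, 138, 157 and 171 CPM in WT hearts and 57.1, 56, 55.9, 25.0 and 39.3 CPM in Taz-KD hearts (-1.54 ± 0.24, adjusted p = 0.00116). The natriuretic peptide genes, standard markers of a loaded heart, were scattered: Nppa was at 35.2, 26.8, 71.0, 196 and 184 CPM against 106, 427, 299.7, 79.7 and 338 CPM (1.29 ± 0.71, adjusted p = 0.235) and Nppb at 39.2 ± 31.9 and 44.5 ± 33.1 CPM (adjusted p = 0.899). Nppa is also an atrial gene, and the Taz-KD library lowest in it, R1797, was among the 3 with atrial markers.

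Of 16 genes known to respond to load 5 rose and 1 fell, and 3 rose without the 3 libraries. Ankrd1, a stretch-responsive ankyrin repeat protein of the Z-disc, was at 457, 307, 575, 865 and 514 CPM in WT and at 1303, 1662, 2054, 883 and 1224 CPM in Taz-KD hearts (1.39 ± 0.29, edgeR adjusted p = 0.00659), the Taz-KD library R1797 lying just above the highest WT library. Uchl1, a deubiquitinase of nerve and stressed muscle, was at 7.37, 3.57, 5.10, 4.73 and 6.04 CPM against 23.8, 48.9, 40.2, 26.9 and 22.8 CPM (2.60 ± 0.27, adjusted p = 7.37e-05). The lectin Lgals3 was at 1.71 ± 0.430 and 11.7 ± 8.89 CPM (SD, 2.76, adjusted p = 0.00402). Acta1, the skeletal actin of the fetal program, was higher in every Taz-KD heart (169, 35.5, 384, 251 and 270.3 CPM against 582, 1493, 632, 677 and 533 CPM), but its adjusted p of 0.0464 rose above the threshold in 15 of 25 alternative fits (0.149 without the 3 libraries). Filamin C, Flnc, a Z-disc crosslinker, rose from 624 to 1416 CPM (1.18, adjusted p = 0.000826). The fall was Mybpc2, the fast skeletal form of myosin-binding protein C (29.8, 8.01, 47.1, 34.5 and 27.8 CPM against 5.22, 5.31, 6.00, 4.27 and 2.90 CPM, -2.63 ± 0.42, adjusted p = 0.00172, 0.0752 without the 3 libraries with atrial markers). Myot, a Z-disc protein, fell with it (31.5 ± 12.8 to 8.10 ± 3.63 CPM, adjusted p = 0.00638, 0.163 without them). Of the 10 skeletal muscle markers 6 did not pass the filter on low counts, and the fast troponin Tnnt3 was at 0.674 and 0.554 CPM.

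Of 41 ion channel and gap junction genes 16 fell and 3 rose, with a median of -0.36, and 13 of them lay below every WT library. Scn4b, a beta subunit of the cardiac sodium channel, was at 21.8, 31.9, 28.7, 63.1 and 35.0 CPM in WT and at 6.56, 6.78, 9.47, 12.1 and 7.65 CPM in Taz-KD hearts (-2.09 ± 0.30, edgeR adjusted p = 0.000737). Kcnv2, a silent subunit that modifies KV2 potassium channels, was at 12.5, 32.4, 23.7, 21.5 and 16.3 CPM against 3.95, 2.87, 3.23, 6.47 and 5.52 CPM (-2.27 ± 0.30, adjusted p = 0.000389). Clcn1, the chloride channel of skeletal muscle (-2.29), Scn4a, the sodium channel of skeletal muscle (-1.48), and Kcnj12, which carries part of the inward rectifier current (-0.88, 25.4 to 13.8 CPM), were also below WT in every Taz-KD library. Of the pacemaker channels, Hcn4 fell (9.34 to 4.24 CPM) and Hcn2 rose (25.6 to 38.6 CPM), and Cacna1g, the T-type calcium channel, fell from 38.7 to 15.4 CPM. Without the 3 libraries with atrial markers 13 channel genes passed as lower and 3 as higher.

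Of 33 calcium handling genes 11 fell and 4 rose (median -0.20), and 5 fell and 2 rose without the 3 libraries with atrial markers. Pln, phospholamban, the inhibitor of the calcium pump SERCA2, was at 3139, 4098, 3369, 3627 and 3773 CPM in WT hearts and at 2336, 1694, 1878, 1750.0 and 2078 CPM in Taz-KD hearts (-0.89 ± 0.10, edgeR adjusted p = 7.36e-05). The pump itself, Atp2a2, fell by less, from 14086 ± 1075 to 10001 ± 824 CPM (SD, -0.49 ± 0.09, adjusted p = 0.00150, 0.0629 without the 3 libraries with atrial markers). Hrc, a calcium-binding protein of the same store, fell from 584 to 232 CPM (-1.33). Casq1, the skeletal calsequestrin, was at 22.8, 5.11, 19.4, 15.7 and 12.2 CPM against 4.35, 3.76, 2.91, 3.27 and 2.78 CPM (-2.14 ± 0.35, adjusted p = 0.00151, 0.0884 without them). Camk2a (45.8 to 26.1 CPM) and Camk2b (11.0 to 5.16 CPM), minor cardiac forms of the calcium/calmodulin kinase, fell, as did Camk2g (-0.24, adjusted p = 0.0141, 0.0809 without the 3 libraries). The main cardiac form Camk2d rose (210.1 ± 24.0 to 251 ± 20.9 CPM, 0.25, adjusted p = 0.0465, a call lost in 15 of 25 alternative fits), with overlapping groups. Ryr2, the release channel, did not pass (5008 ± 408 and 4238 ± 511 CPM, adjusted p = 0.0873). The sodium/calcium exchanger Slc8a1, which extrudes calcium, rose: it was at 299.6, 318, 316, 342 and 431 CPM in WT and at 638, 648, 576, 487 and 616 CPM in Taz-KD hearts (0.80 ± 0.11, adjusted p = 0.000215).

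Of 31 genes of autonomic input and cAMP signalling 10 fell and 1 rose. Adra1b, an alpha-1 adrenergic receptor, was at 30.3, 28.2, 26.2, 24.7 and 26.2 CPM in WT and at 8.02, 11.3, 9.03, 17.0 and 16.8 CPM in Taz-KD hearts (-1.13 ± 0.20, edgeR adjusted p = 0.00204). Adra1a, the other alpha-1 receptor of cardiomyocytes, fell from 66.1 ± 9.69 to 33.7 ± 7.11 CPM (SD, -0.97). Dbh, the enzyme that makes noradrenaline, was low in WT at 2.06, 1.92, 0.965, 0.735 and 0.833 CPM and lower in Taz-KD hearts at 0.249, 0.214, 0.175, 0.0628 and 0.278 CPM (-2.71 ± 0.40). The rise was Grk5, a kinase that silences adrenergic receptors, at 42.9 ± 2.51 and 83.6 ± 9.81 CPM (0.96 ± 0.08, adjusted p = 4.74e-06). The summed level of the 6 tested Schwann cell and nerve markers overlapped between genotypes (12.8 to 49.2 CPM in WT hearts and 29.3 to 54.1 CPM in Taz-KD). None of the 6 passed edgeR's test (0 at an unadjusted p under 0.05, 0 by DESeq2). Without the 3 libraries with atrial markers 4 genes of this program passed as lower, and 6 did with the marker term or without R1795, R2 or R1796 alone. Among 22 cardiac transcription factors 2 rose and 3 fell, with Nkx2-5, a core factor of the cardiac lineage, at 44.7 ± 3.59 and 59.2 ± 8.70 CPM (0.40, adjusted p = 0.00951, 0.129 without those libraries).

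Among regulators of growth, Myc, the factor that drives ribosome production and growth, was at 4.31, 6.58, 6.06, 4.55 and 3.78 CPM in WT and at 32.1, 16.1, 25.1, 23.1 and 20.3 CPM in Taz-KD hearts (2.21 ± 0.20, edgeR adjusted p = 1.73e-05). It was the single rise among 23 immediate early genes, of which 4 fell, Jun among them (-0.45). Ccnd2, a cyclin of the G1 phase, was at 177, 156, 185, 199 and 239 CPM against 654, 743, 764, 484 and 555 CPM (1.74 ± 0.14, adjusted p = 5.26e-06). Of 24 genes of the cell cycle and DNA replication, 2 rose and 5 fell. The falls numbered 1 without the 3 libraries with atrial markers, with the marker term, or without any of R1792, R1795, R1800, R2, R1796 and R1798 alone, and 2 or 3 without R1797 or R1793. Cdk1, the kinase of mitosis, was at 0.981 and 0.508 CPM (-0.94, adjusted p = 0.0379, a call lost in 10 of 25 alternative fits, 0.430 without the 3 libraries). Cdkn1a, the inhibitor p21, was at 10.4, 6.65, 14.5, 8.12 and 21.2 CPM in WT and at 65.0, 56.6, 76.2, 55.8 and 40.4 CPM in Taz-KD hearts (2.27 ± 0.31, adjusted p = 0.000702). The apoptosis gene Bbc3 rose from 3.52 ± 0.644 to 8.19 ± 1.15 CPM (SD). Of 16 p53 targets and arrest genes 7 rose and 2 fell. In insulin signalling 4 of 18 rose and 4 fell, led by the adaptor Grb10, which restrains the insulin receptor (119 ± 18.7 to 235 ± 31.1 CPM), and the pseudokinase Trib1 (29.8 ± 4.71 to 14.8 ± 2.12 CPM). Of the clock genes, Arntl was at 1.86 ± 0.683 and 1.80 ± 0.789 CPM (adjusted p = 0.937). The output factors Tef, Hlf and Dbp fell (-0.45, -0.73 and -0.46), the call of Dbp being lost in 14 of 25 alternative fits (0.391 without the 3 libraries), that of Hlf in 2 and that of Tef without the 3 libraries with atrial markers (adjusted p = 0.0618).

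Genes of the interferon response fell, with 13 of 29 lower, none higher and a median of -0.39. Gbp2, a guanylate-binding protein, was at 18.2, 17.2, 17.0, 16.1 and 16.8 CPM in WT and at 11.3, 9.93, 8.57, 12.9 and 13.0 CPM in Taz-KD hearts (-0.62 ± 0.11, edgeR adjusted p = 0.00138). The RNA sensor Ifih1 fell from 20.7 ± 1.61 to 15.8 ± 1.28 CPM (SD, -0.39). Both separated the genotypes, as did 4 of the 29 tested, and 9 of the 13 called had overlapping groups. The steps were small, Oas2, an antiviral enzyme, having the largest (-0.69, adjusted p = 0.00511, 0.0778 without the 3 libraries with atrial markers). Without those libraries 3 interferon-induced genes passed as lower, with the marker level as a term 9 did and without R1792 alone 6 did. Markers of blood and vessel cells moved with them. The summed level of 12 endothelial markers was 1477 to 1703 CPM in WT hearts and 1225 to 1326 CPM in Taz-KD hearts, with 7 of 12 lower and none higher, Pecam1 among them (166 to 132 CPM). The 5 tested of 12 T and B cell markers summed to 17.5 to 22.7 CPM against 13.2 to 15.4 CPM. Most of that sum was Ptprc (17.2 ± 1.72 and 12.4 ± 1.29 CPM, SD), the only gene of the list that passed (edgeR adjusted p = 0.00275, 0.0528 without those libraries). The 6 tested of 7 red blood cell markers summed to 422 to 744 CPM against 289.8 to 458 CPM, and 4 of the 6 were lower. Of the other lists, pericytes and smooth muscle held 1 rise and 3 falls among 12 markers, macrophages 1 fall among 12 and adipocytes 1 rise among 7. Neutrophil and mast cell, epicardial and valve markers held no call by edgeR (6 tested in each, 0 at an unadjusted p under 0.05, 0 by DESeq2). The part of these cells in the falls was not tested.

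Of 37 collagens 5 fell and 1 rose (median -0.33), and of 42 genes of matrix, TGF-beta and fibroblast activation 2 fell and 1 rose (median -0.23). Collagen falls numbered 0 without the 3 libraries with atrial markers, 2 without R3, R1792, R2, R1796 or R1798 alone, 3 without R1800 and 9 without R1791. The matrix falls numbered 0 without those 3 libraries and also without R2 alone. Col1a1 was at 224 ± 102 and 184 ± 70.7 CPM (SD, edgeR adjusted p = 0.611), Col3a1 at 358 ± 120.0 and 293 ± 87.7 CPM (0.457). Postn, a marker of activated fibroblasts, was at 145, 36.0, 66.4, 53.2 and 56.7 CPM against 37.0, 105, 41.7, 89.2 and 45.7 CPM (0.825). None of 12 fibroblast markers passed edgeR's test (0 at an unadjusted p under 0.05, 0 by DESeq2), with summed levels of 1989 to 4415 and 1652 to 2714 CPM. The rise was Inhba, a subunit of activin, at 3.70, 0.902, 2.72, 1.58 and 1.14 CPM in WT and at 6.09, 10.9, 13.3, 7.16 and 3.89 CPM in Taz-KD hearts (2.03 ± 0.44, adjusted p = 0.00746). Tgfb2, another ligand of that family, was at 19.2 ± 3.11 and 31.4 ± 12.3 CPM (0.71, adjusted p = 0.0620). Of the chemokines, Cxcl12, made by stromal and endothelial cells, fell (243 ± 36.0 to 173 ± 19.4 CPM, adjusted p = 0.00560, 0.105 without the 3 libraries with atrial markers).

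**Figure D4:**
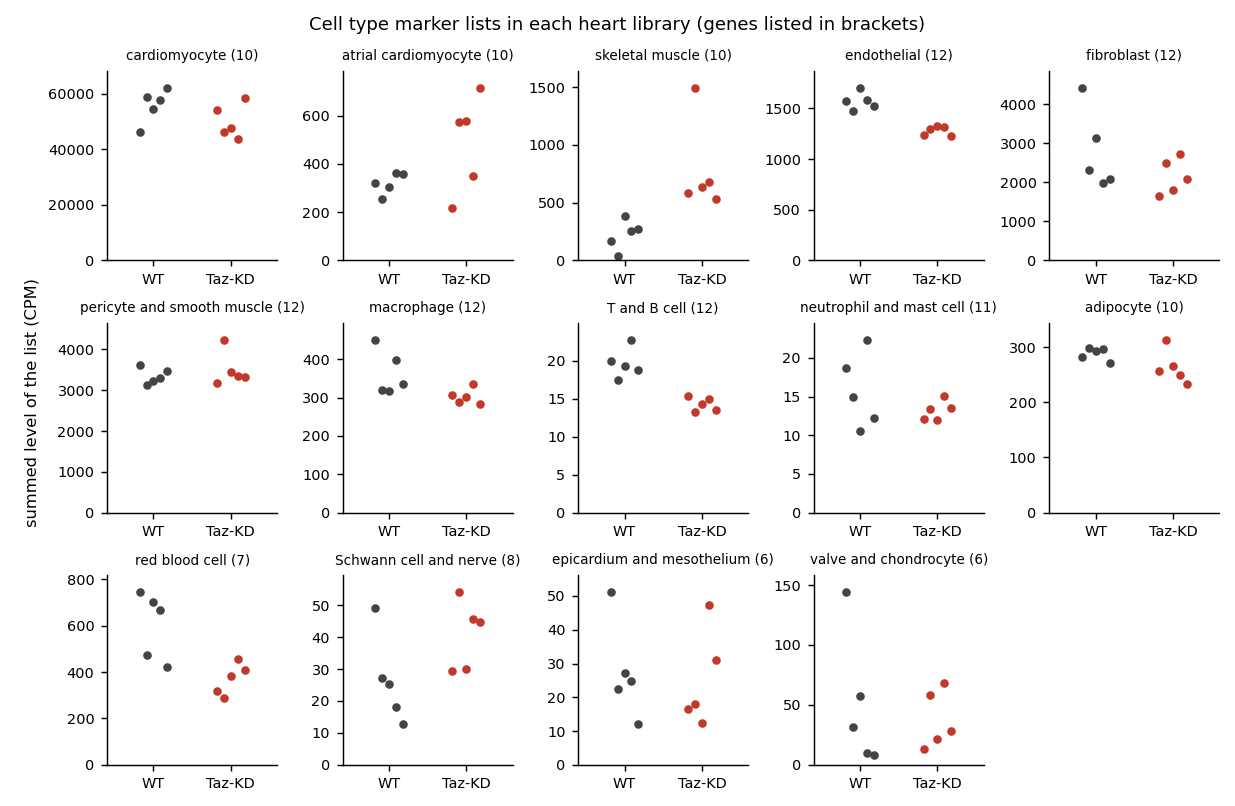
Summed level (CPM, vertical axes start at 0) of the tested genes of 14 lists of cell type markers in each heart library, WT in black and Taz-KD in red, with the number of genes listed in brackets. Endothelial and T and B cell lists are lower in every Taz-KD library, the latter mostly through Ptprc. The skeletal list is higher in every one through Acta1, and the other lists overlap between genotypes.

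Secreted factors and their receptors held 6 rises and 5 falls among 36, and 3 rises and 2 falls without the 3 libraries with atrial markers. The falls numbered 8 without R1800 alone and 3 without R2 alone. Ostn, osteocrin, a peptide that spares natriuretic peptides from their clearance receptor, was at 0.161, 0.0752, 0.0345, 0.0350 and 0 CPM in WT and at 18.6, 31.7, 27.4, 30.2 and 21.9 CPM in Taz-KD hearts (8.61 ± 0.33, edgeR adjusted p = 1.14e-08). Apln, the peptide ligand apelin, fell from 10.8, 7.93, 6.79, 15.2 and 15.6 CPM to 2.55, 4.03, 3.15, 2.89 and 3.39 CPM (-1.81 ± 0.24, adjusted p = 0.000253). The endothelin receptor Ednra rose from 45.4 ± 10.9 to 75.2 ± 8.35 CPM (SD, 0.73). Angpt1, a vessel-stabilising ligand, fell from 39 to 17.1 CPM (-1.19, adjusted p = 0.0248, a call lost in 7 of 25 alternative fits). Fgf12, a modulator of sodium channels, was at 0.404, 0.825, 3.44, 2.76 and 6.14 CPM in Taz-KD and 0.208 to 0.677 CPM in WT hearts (2.66), high in the 3 libraries with atrial markers, and its call was lost without them (adjusted p = 0.558).

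Several of the largest rises were of genes close to silent in WT hearts. Vmn2r3, annotated as a vomeronasal receptor (GRCm38, chr3:64257215-64289709, minus strand), was at 0, 0.0752, 0.0345, 0 and 0 CPM in WT and at 57.5, 44.5, 54.9, 30.0 and 47.2 CPM in Taz-KD hearts. That is 3 counts against 7675, a ratio of 2255 (exact 95% interval 771 to 10938, counting error only). Mei4, needed for meiotic breaks, had no count in WT and was 1.29 to 2.42 CPM in Taz-KD hearts, at least 87.0-fold higher than the level that 3 counts over the 5 WT libraries would give. The transmembrane teneurin Tenm4 was at 2.61, 1.84, 1.83, 2.24 and 3.02 CPM against 211, 159, 219, 117 and 140.4 CPM (6.19 ± 0.23, edgeR adjusted p = 2.46e-08). Tfcp2l1, a transcription factor known from pluripotent and kidney cells, was at 1.52 ± 0.316 and 50.6 ± 9.53 CPM (SD, 5.04 ± 0.17). Fibcd1, a chitin-binding receptor, was at 0.0891 ± 0.0945 and 3.94 ± 1.47 CPM (5.39). Cdsn, the adhesion protein of the cornified skin layer, was at 0.614 ± 0.235 and 19.9 ± 8.02 CPM (5.02). Acox2, a peroxisomal oxidase of branched and bile acid chains, was at 0.405 ± 0.145 and 8.45 ± 3.58 CPM (4.36). All separated the genotypes, which the rule that named the largest rises required.

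Some of these rises lay side by side on the chromosome. The aldo-keto reductase Akr1b7 (chr6:34412334-34423142, plus strand) was at 0.0268 ± 0.0273 and 7.71 ± 1.68 CPM (SD). The pseudogene transcript Gm13857, which overlaps it on the other strand, had 2 counts in WT and 463 in Taz-KD hearts, a ratio of 204 (exact 95% interval 56.2 to 1690.1). Within the span of Tenm4 (chr7:96171246-96911093, plus strand), the antisense transcript Gm15414 had 1 count against 168, a ratio of 148 (26.2 to 5884), and the pseudogene Gm8319 was at 0.0690 and 1.78 CPM. The libraries were made to keep the strand, but the strand setting of the counting is not given in the sources used here, so reads of such partners cannot be told apart. Cyb5r1, a cytochrome b5 reductase (chr1:134405559-134411740, plus strand), was at 19.0, 18.8, 20.1, 20.2 and 18.6 CPM in WT and at 163, 195, 206, 146 and 155 CPM in Taz-KD hearts (3.16 ± 0.10, edgeR adjusted p = 1.45e-09). Its neighbour 4933406M09Rik (chr1:134385940-134390981) rose from 0.105 ± 0.0570 to 2.23 ± 0.592 CPM.

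The largest fall was that of Ano5, an anoctamin of muscle membrane repair (1.64, 0.526, 0.758, 2.42 and 0.729 CPM against 0.0311, 0.153, 0.0583, 0.126 and 0 CPM, -3.98 ± 0.62, edgeR adjusted p = 0.000655). Shisa6, an auxiliary protein of glutamate receptors, fell from 1.95 ± 0.564 to 0.123 ± 0.105 CPM (SD, -3.95). The adenylyl cyclase Adcy8, the calcium channel subunit Cacng6 and the endocytic adaptor Pacsin1 fell by 2.52, 2.53 and 2.61 on the log2 scale, all from levels near 1.5 CPM, where the precision is limited. Lrrc15, a leucine-rich repeat membrane protein, fell from a higher level (22.8, 30.5, 22.1, 34.1 and 32.1 CPM against 7.46, 4.52, 5.77, 4.84 and 7.13 CPM, -2.25 ± 0.17, adjusted p = 3.94e-06). Long intergenic RNAs were more often lower than higher, 78 against 45 of 581, whereas 2442 protein-coding genes of 14196 rose and 1626 fell. Over all genes tested 14.4% rose and 10.3% fell. The counts by biotype were not refitted, and the split between directions depends on the scaling. The intergenic RNA with the largest fall was 2310020H05Rik, from 1.02 ± 0.334 to 0.0781 ± 0.0753 CPM.

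In skeletal muscle of the same series, 2 genes were higher (0.0124%) and 1 lower (0.00619%) of 16145 tested by edgeR, the only fit of muscle alone run here. The paper, which used DESeq2, reports far more differentially regulated genes in muscle. Large muscle values could miss the threshold, as Ptprc did (-3.54, edgeR adjusted p = 0.311), so few calls do not mean an unchanged muscle. With so few calls the tissues can be compared only through a test of the difference of the genotype effects. That test, across 20612 genes, found the effect in heart above that in muscle for 632 (3.07%) and below for 320 (1.55%), 952 in all. The heart and muscle libraries came from separate count tables, and within-table contrasts were compared. Among genes outside the lists left aside, the smallest p was that of Cyb5r1, with a difference of 2.19 ± 0.20 (SE, edgeR adjusted p = 3.56e-06). Pmm1, a phosphomannomutase, rose by 2.54 in heart (10.8 ± 1.12 to 63.1 ± 15 CPM) with a difference of 2.19 ± 0.24. Eef1a1 differed by 2.69 ± 0.32 and Btf3 by 0.98 ± 0.11. The difference was also above 0 for the transducin-like repressor Tbl1x (1.31 ± 0.15), the protease Prss36 (1.24 ± 0.14) and the zinc finger factor Zfp423 (1.83 ± 0.22). Their log2 fold changes were 1.05, 1.38 and 1.44 in heart. In muscle they were -0.35, 0.07 and -0.45, none of them called. Setd5, a chromatin protein, did the reverse: it did not pass in heart (125 ± 4.90 and 137 ± 7.63 CPM, adjusted p = 0.118) and was higher in muscle (0.97, adjusted p = 0.000949). Its gene (chr6:113077365-113153435, plus strand) begins beside Gt(ROSA)26Sor (chr6:113067428-113077333, minus strand), the ROSA26 locus named in the transgenic strain, and that transcript was at 5.91 ± 0.436 CPM in WT hearts and 11.0 ± 0.704 CPM in Taz-KD hearts (0.90, adjusted p = 9.43e-06).

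The program medians bore the same contrast. Over the genes tested in both tissues, the median log2 fold change of the cytosolic ribosomal proteins was 0.71 in heart and 0.06 in muscle, that of the translation factors 0.44 and 0.16, and that of the ion channels -0.36 and -0.06. Interferon-induced genes and collagens had medians below 0 in both, -0.39 and -0.51 for the former and -0.35 and -0.42 for the latter. The thick filament genes, at -0.11 in heart, had a median of -1.15 in muscle, where none of the 13 tested passed. The difference was not tested as a list.

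**Figure D5:**
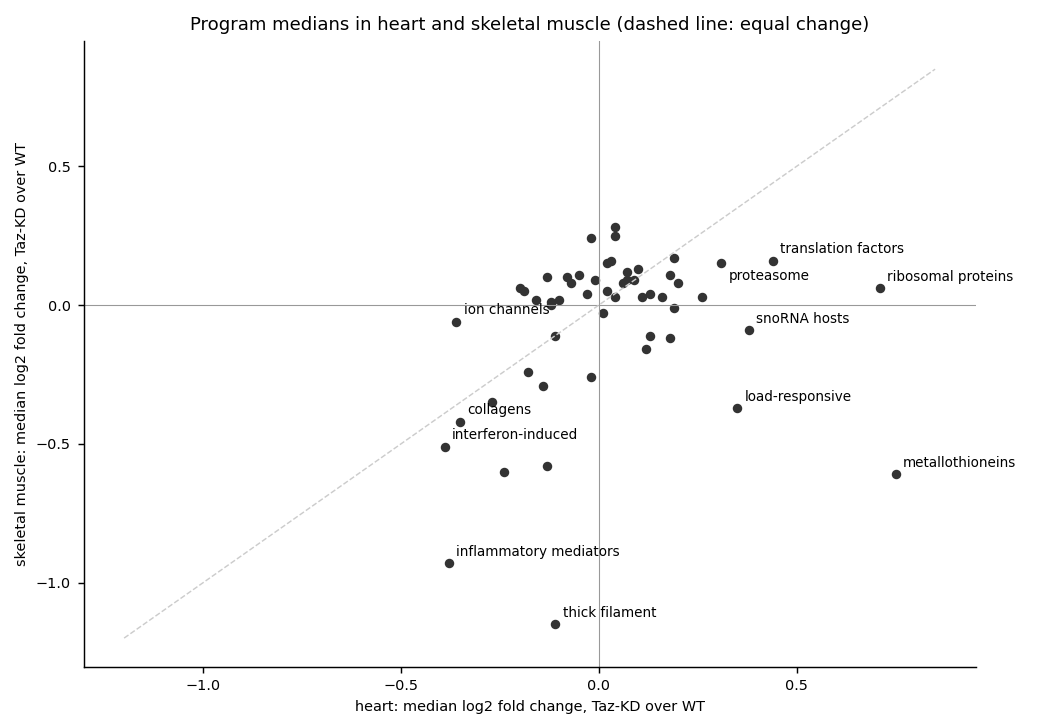
Median log2 fold change (Taz-KD over WT) of each program in heart (horizontal axis) and in skeletal muscle (vertical axis) over the genes tested in both, with 1 point per program and a dashed line of equal change. Ribosomal proteins and translation factors lie far to the right at medians of 0.71 and 0.44 in heart and near 0 in muscle, while collagens and interferon-induced genes lie below 0 in both.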

How the data were processed

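Total RNA depleted of ribosomal RNA was sequenced as strand-specific libraries with paired reads of 150 bases. Per the submitters' processing notes, STAR, featureCounts 1.6.4 and DESeq2 2.11.40.6 were used with mm10/GRCm38, and the raw read counts per gene were deposited by the authors as 1 table per tissue. For the aligner's version, the annotation release and the strand setting of the counting, nothing is stated in the sources used here. The deposited counts were not normalised.

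Genes were kept by filterByExpr, scaled by the trimmed mean of M-values and tested with edgeR 4.0.16 (robust quasi-likelihood fit, R 4.3.3), and p-values were adjusted by Benjamini-Hochberg over all genes tested. A gene was called at an adjusted p under 0.05. DESeq2 1.42.0 and limma 3.58.1 served as alternatives. Muscle was fitted on its own, and the difference of the genotype effects in 1 fit over 20 libraries. The exact permutation test used scipy 1.17.1.

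The genes and lists were chosen with earlier results of these data known. Named were up to 4 members with the smallest adjusted p per program, members against its direction, defining members, the 15 largest rises and falls of protein-coding genes (at least 1 CPM in a genotype, no overlap), 5 of other biotypes and the 10 smallest p of the difference between tissues. Not all are printed. Outside this rule, 23 genes were named after their values were seen: Adra1b, Cacna1g, Camk2b, Camk2g, Chkb, Dgat2, Fbxo32, Fgf12, Gt(ROSA)26Sor, Hcn4, Jun, Lpl, Mmp11, Nhp2, Pecam1, Pnpla8, Prelid1, Ptprc, Scn4b, Sod1, Sqstm1, Tnnt3 and Trim63.

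On simulated counts for the heart comparison (19486 genes), edgeR recovered 91 of 100 genes with a 3-fold difference and 47 of 100 with a 1.5-fold difference, beside 6 false calls. No other gene was changed in that simulation, whereas 24.6% of genes were called in the data, so these rates need not hold for the data. For the difference between tissues (20612 genes), 56 of 100 genes with a 3-fold difference were recovered, beside 1 false call. Promoter windows were at hand for 77.6% of the protein-coding genes tested, so motif shares were not compared between gene sets. Depth was 26963288 to 35301909 counts per heart library, and intervals and floors cover counting error only.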

Additional observations from a re-analysis of the deposited data

Results flagged for a closer look

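Within the 5 libraries of a genotype, 17 of 412 groups of values held a library farther from the others than Dixon's critical value of 0.71 of the range allows. Chance alone gives about 1 in 20 such groups. The WT library R3 accounted for 5 of them.

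Apart below the other WT libraries, in CPM, were Psmc2 in R3 at 52.2 (the others 56.4 to 57.5), Hspb1 in R1791 at 77.0 (the others 113 to 121), Ern1 in R1800 at 28.6 (the others 37.4 to 39.9) and Lpl in R3 at 3095 (the others 3859 to 4171). Apart above the other WT libraries, in CPM, were Lclat1 in R1800 at 139 (the others 101 to 112), Coq8b in R1792 at 8.44 (the others 7.11 to 7.47), Cacna1g in R3 at 58.7 (the others 29.3 to 37.2) and Postn in R3 at 145 (the others 36.0 to 66.4). Apart above the other WT libraries, in CPM, were Gm13857 in R3 at 0.0644 (the others at 0) and Gm15414 in R1792 at 0.0345 (the others at 0). Apart below the other Taz-KD libraries, in CPM, were Prelid3b in R1797 at 43.3 (the others 52.5 to 55.9). Apart above the other Taz-KD libraries, in CPM, were Cox8a in R1793 at 156 (the others 119 to 128), Stbd1 in R1796 at 66.4 (the others 32.1 to 41.6), Cidea in R1793 at 26.2 (the others 15.4 to 16.9) and Acta1 in R1793 at 1493 (the others 533 to 677). Apart above the other Taz-KD libraries, in CPM, were Pecam1 in R1797 at 149.9 (the others 127 to 129) and Angpt1 in R1798 at 33.1 (the others 10.5 to 15).

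For 84 of the genes named, the log2 fold change of Taz-KD over WT differed between heart and muscle (edgeR adjusted p under 0.05 for the difference). Of these differences, heart minus muscle, 54 were above 0. Over all 20612 genes tested for it, the difference was above 0 for 3.07% and below 0 for 1.55%. Most of the genes were named by their heart values and some by this difference itself. A larger share among them was thus built in and is no result about them. In protein synthesis the effect in heart was higher for Rps26 (0.84), Eif3c (1.15), Eef1a1 (2.69), Eif2s2 (1.03), Rpl3 (2.22), Nhp2 (1.07), Btf3 (0.98) and Gas5 (0.63), and lower for Rpl3l (-2.16) and Eif4e (-0.74). For protein folding and removal it was higher in heart for Psmb1 (0.51), Hsp90aa1 (1.49), Ern1 (1.42), Atf6 (0.86), Derl1 (0.60) and Ctsl (1.56), and lower in heart for Fkbp4 (-0.71). Among genes of mitochondria the difference was above 0 for Hspa9 (0.89), Hspe1 (0.67), Chchd6 (1.26), Cds2 (0.63), Prelid1 (0.90), Atpif1 (0.86), Coq8b (1.06), Cox8a (1.33), Cox6a1 (1.45) and Slc25a5 (1.20), and below 0 for Cox7a1 (-1.07), Uqcrfs1 (-0.59), Coq10a (-0.77), Coq9 (-0.59) and Oma1 (-0.60). In fuel use and redox it was above 0 for Hk1 (1.35), Pfkp (1.58), Slc2a1 (0.91), Gyg (1.32), Cidea (3.12), Cat (0.83) and Prdx6 (0.59), and below 0 for Eno3 (-1.19), Slc2a4 (-0.87), Pdp2 (-1.44), Epm2a (-0.78), Me3 (-0.84) and Sod2 (-0.56). For contraction, load and excitability the difference was positive for Uchl1 (3.99), Lgals3 (3.69) and Grk5 (1.38), and negative for Mybpc2 (-3.07), Myot (-2.03), Scn4b (-2.49), Kcnv2 (-3.00), Clcn1 (-2.70), Scn4a (-2.04), Kcnj12 (-1.50), Hrc (-1.59), Casq1 (-2.53), Camk2b (-1.09) and Adcy8 (-2.28). In growth and secreted factors the positive differences were those of Myc (2.23), Ccnd2 (2.43), Cdkn1a (2.06), Bbc3 (1.88), Inhba (2.65), Ostn (8.22) and Ednra (1.27), and the negative ones those of Trib1 (-0.78) and Tef (-0.76). In the remaining set they were those of Mei4 (8.12), Tenm4 (6.48), Tfcp2l1 (4.46), Fibcd1 (7.16), Cdsn (8.74), Acox2 (3.55), Gm13857 (8.72), Gm8319 (5.23), Cyb5r1 (2.19), Pmm1 (2.19), Tbl1x (1.31), Prss36 (1.24) and Zfp423 (1.83), and the negative ones those of Ano5 (-4.48), Shisa6 (-3.16) and Setd5 (-0.92). Values near 0 CPM in a tissue make the differences of the largest size imprecise.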

How the results depend on the processing

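The count of genes changed in heart (4803) stayed within 1.5 times under the other normalisations, filters, tools, covariates and left-out replicates, and fell to 2169 (1522 higher, 647 lower) without the Taz-KD libraries R1796, R1797 and R1798, an alternative added after the atrial markers had been seen, as were the terms for these markers and for Xist level and the fit without rRNA-like and short RNAs. That fit has fewer samples, 2 Taz-KD libraries. With upper-quartile factors 2445 genes were higher and 2511 lower, so that the split between directions depends on the scaling. Leaving out each replicate in turn gave 3930 to 4616 changed genes, 2302 to 2754 higher and 1501 to 1920 lower, and a log2 fold change of Taz between -1.73 and -1.68. The number of genes whose effect differed between heart and muscle was 952 with edgeR and 1606 with DESeq2, the cause was not tested. Under the 25 alternative fits, no named gene took the opposite direction where it was called in the main fit or in that alternative. Changes of sign in genes called in neither were not counted. Of 175 called genes named, 129 kept the call under every one and 46 lost it under at least 1, of which 43 lost it without the 3 libraries. Of 30 not called, 9 gained a call under at least 1. Program medians near 0 (within 0.03) changed sign with the scaling for cardiac transcription factors, mTORC1 regulators, atrophy ligases, nonsense-mediated decay and mitochondrial shape. Without the WT library R3 and the Taz-KD library R2, the only ones outside the second number series, 3909 genes changed. No paired analysis was possible because the labels give the libraries of the groups no shared replicate numbers. Genes under about 1 CPM rest on few reads per library.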
